A study of Mus musculus with 6 samples.

Results

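The genes described here encode the proteins of the mitochondrial ribosome. They were chosen by name alone, as mouse genes whose symbol starts with Mrpl or Mrps followed by a number, found through the RefSeq transcript accession of their probe. Of 78 protein-coding symbols of that form in the RefSeq table, 69 were measured, among 13971 named genes and 34175 features tested. By symbol 42 belong to the large subunit (Mrpl) and 27 to the small subunit (Mrps). Mrps30 was read by 2 probes and each of the others by 1. Mrpl9, Mrpl22, Mrpl41, Mrpl44, Mrpl47, Mrpl48, Mrpl52, Mrps10 and Mrps25, and 6 pseudogenes with such symbols, were not analysed here.

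The mitochondrial ribosome translates the few mRNAs of the mitochondrial genome, whose products are all subunits of the respiratory chain and the ATP synthase. Its ribosomal RNAs are transcribed inside the organelle, while its proteins are encoded in the nucleus, made in the cytosol and imported. Some of these proteins descend from bacterial ribosomal proteins and others were gained by mitochondria, and inherited defects in several of them impair respiration in human patients.

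RNA came from livers of C57BL/6 mice aged 14 months. There were 3 wild-type mice (replicates 1, 2 and 4) and 3 Src-transgenic mice (replicates 1, 3 and 4), the latter carrying human c-Src, a tyrosine kinase and proto-oncogene, behind the mouse metallothionein promoter. That promoter responds to zinc and is active in many cell types, so expression was not limited to hepatocytes by design. According to the study's design text zinc could induce the transgene and was mostly not needed, but whether these mice received it, whether the tissue held tumour, and how many transgenic lines were used are not stated. The metallothionein genes, which respond to zinc and other metals, read higher in every transgenic than in every wild-type mouse. Mt1 read 9.74, 9.72 and 11.50 on wild-type and 14.38, 13.71 and 14.00 on transgenic arrays, a log2 difference of 3.71 ± 0.53 (SE, limma's adjusted p = 0.69). Mt2 read 5.72, 4.87 and 5.85 and 11.06, 9.68 and 10.33, with 2 of the 3 wild-type values above background, a difference of 4.88 ± 0.44 (SE, limma's adjusted p = 0.35). The part of metal exposure in the results below was not tested. In such bulk tissue fewer cells of a type and less RNA per cell cannot be told apart.

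Each array carried 34967 mouse probes, with a median signal of 53.8 to 93.4 on the wild-type and 94.8 to 117 on the transgenic arrays. The log2 signal of the mouse Src probe was 6.62 to 7.21 for wild-type and 7.71 to 9.67 for transgenic mice, without overlap. Whether this probe reads the human transcript is not known. Log2 signals are given after quantile normalization, which makes the arrays' distributions alike, and a signal counted as above background when it exceeded a threshold set from control spots. Of the hepatocyte markers 8 were measured, all above background on every array, with Alb at 14.9 to 15.2, while of 6 muscle and brown fat markers Acta1 and Myh6 were above background on no array, Ckm and Ucp1 on 1 transgenic array each, and Cox7a1 and Cox8b on 2 wild-type and 3 transgenic arrays each. Of the Y-linked genes, Uty, Ddx3y and Eif2s3y lacked signal above background on transgenic replicate 4 alone, while Kdm5d had it there, so summary values are also given without that array. With 3 arrays a group, precision is limited by their number.

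The first question was whether any mitochondrial ribosomal protein gene differed between transgenic and wild-type livers. None passed the test. Of the 69 genes, 52 had a lower and 17 a higher mean in transgenic livers, and the median difference was -0.14 on the log2 scale (interquartile range -0.27 to -0.00). Over all features tested 48.3% had a lower mean and the median difference was 0.02. At limma's adjusted p under 0.05, with Benjamini-Hochberg adjustment over all features, 0 of 69 genes were called in either direction, with 0.0% of all features called lower and 0.0% higher. At an unadjusted p under 0.05 limma gave 0 of 69 genes, where 2.72% of all features were lower and 4.37% higher. The smallest adjusted p among the genes was 0.69.

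Other ways of processing were tried, among them scaling each array to its median (median scaling), adding 16 to each signal (the offset), weighting arrays by quality, and subtracting the median deviation of neighbouring spots (local correction). They brought few genes past the unadjusted threshold and none past the adjusted one. In limma 1 gene was lower at an unadjusted p under 0.05 with median scaling, where 3.84% of all features were, and 1 with the authors' table, where 3.83% were. The same gene, Mrps17, was called in both. With an offset of 16 it was Mrpl55 (background 2.41%), and with array weights Mrpl34 (3.34%). Probes above background on all arrays gave Mrpl34 and Mrpl55 (2.78%), a trended robust spread Mrps17 and Mrpl55 (2.44%), and local correction Mrpl2, Mrpl19 and Mrpl45 (3.97%). With the replicate number as a block no gene was lower (1.96%) and 1, Mrpl53, was higher (1.99%). At the adjusted threshold at most 0.00293% of all features passed in any of these or when single arrays were left out.

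The size of difference that these arrays leave room for is set by the spread. The median standard error (limma's moderated one) of a gene's log2 difference was 0.23, against 0.29 over all features. For 57 of the 69 genes the 95% interval of the difference lay between -1 and 1, that is, inside a doubling or halving. Of all features 48.4% had such an interval. For features above background on all 6 arrays the median standard error was 0.25, and 66.0% had such an interval. For 2 of the 69 genes the interval lay between -0.5 and 0.5. These intervals are not adjusted for the number of genes. The plot of each gene's difference shows that each interval crosses 0.

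**Figure D1:**
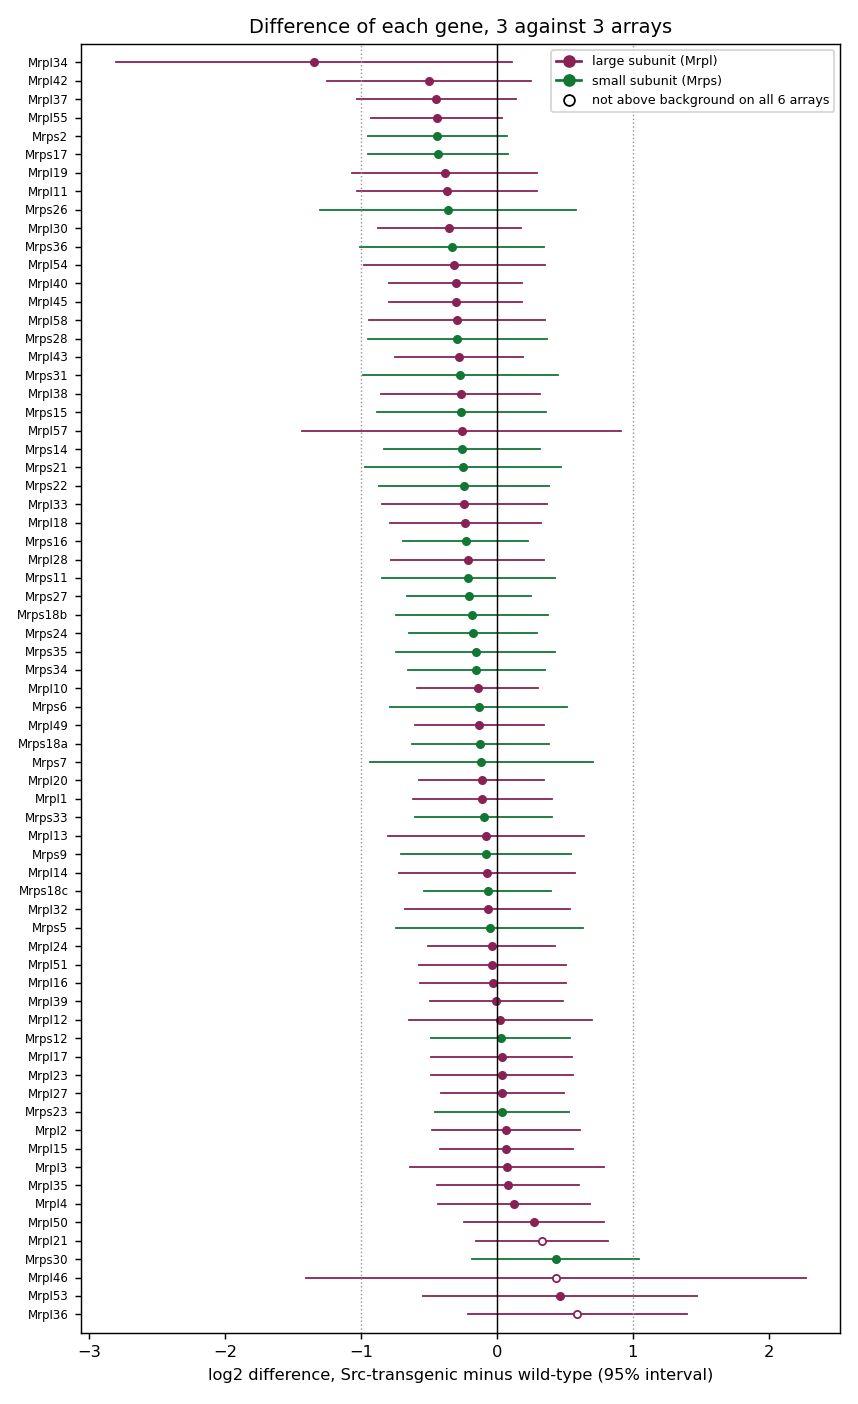
Log2 difference (Src-transgenic minus wild-type, horizontal axis) for each of the 69 genes with its 95% interval from limma, 3 arrays against 3; colour marks the subunit, open points are genes not above background on all 6 arrays, and dotted lines stand at -1 and 1. The interval of 57 genes lies between -1 and 1, and 52 point estimates lie below 0.

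Many of the genes varied together from array to array, a pattern partly shared by other genes. Each gene's log2 signal was set against its own mean over the 6 arrays, and the median over the 69 genes was taken on each array. It was 0.24, 0.10 and -0.17 on wild-type replicates 1, 2 and 4, and -0.08, -0.17 and -0.02 on transgenic replicates 1, 3 and 4. The highest median was on wild-type replicate 1. The lowest place was nearly a tie, at -0.1716 on wild-type replicate 4 and -0.1675 on transgenic replicate 3. Of the 69 genes, 35 read higher on that wild-type array than on that transgenic array, with a median gap of 0.007. Of the 69 genes, 37 had their highest value on wild-type replicate 1, as did 25.9% of all features. The lowest value fell on transgenic replicate 3 for 25 genes and on wild-type replicate 4 for 23.

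Array medians of markers of other liver cell types are set beside this pattern. None of these markers passed limma's adjusted threshold, as 0.0% of all features did. Those of 5 endothelial markers were 0.24, 0.11 and -0.18 in wild-type and -0.04, -0.29 and 0.03 in transgenic mice, with a median difference of -0.16 and 4 of 5 lower. Those of 6 stellate cell markers were 0.26, 0.41 and -0.29 and then -0.17, -0.34 and 0.12, with a median difference of -0.14 and 4 of 6 lower. The 4 Kupffer cell markers were all highest on transgenic replicate 4, where their median was 0.64, and the 8 hepatocyte markers had array medians between -0.08 and 0.08. The 6 T, B and NK cell markers had 0.22, 0.25 and -0.06 in wild-type and -0.51, -0.46 and 0.09 in transgenic mice, with 4 of 6 lower. Among them Ms4a1 was above background on 1 wild-type and 1 transgenic array, and Cd3e on 1 transgenic array only. A patch touched 4 of the 6, or 66.7%, against 18.4% of all features, among them Cd79a on transgenic replicate 3. In limma 2 of these 6, Cd3g and Nkg7, were lower at an unadjusted p under 0.05, where 2.72% of all features were. Both had groups without overlap, as for 5.9% of all features, and Cd79a was higher without overlap, as for 10.1%. No marker of the other lists in this paragraph was called at the unadjusted level. The part of cell composition in the pattern was not tested.

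Within the wild-type group itself, 62 of 69 genes read higher on replicate 1 than on replicate 4, with a median gap of 0.38, where the median gap over all features was 0.18. Similarly 60 of 69 read higher on replicate 2 than on replicate 4, with a median gap of 0.29 against 0.09 over all features. These mice share the wild-type label. A gap between single arrays is a different measure from a difference between means of 3 arrays, so their sizes are not compared. Wild-type replicate 1 was the dimmest array, with a median signal of 53.8 and 62.6% of its probes above background, against 63.7% to 71.7% on the others. The genes were then set against features of like signal on that array. Among those with a mean log2 signal of 7 to 9, the 16 ribosomal protein genes above background on all 6 arrays had a median of 0.41 over their mean there and all 9018 such features 0.08. From 9 to 11 the medians were 0.21 for 37 genes and 0.09 for 3707 features, and from 5 to 7 they were 0.49 for 11 genes and 0.10 for 5554 features. From 11 to 13, with 2 genes, the order was the other way, 0.02 against 0.05. The part of array brightness in this pattern was not tested.

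**Figure D2:**
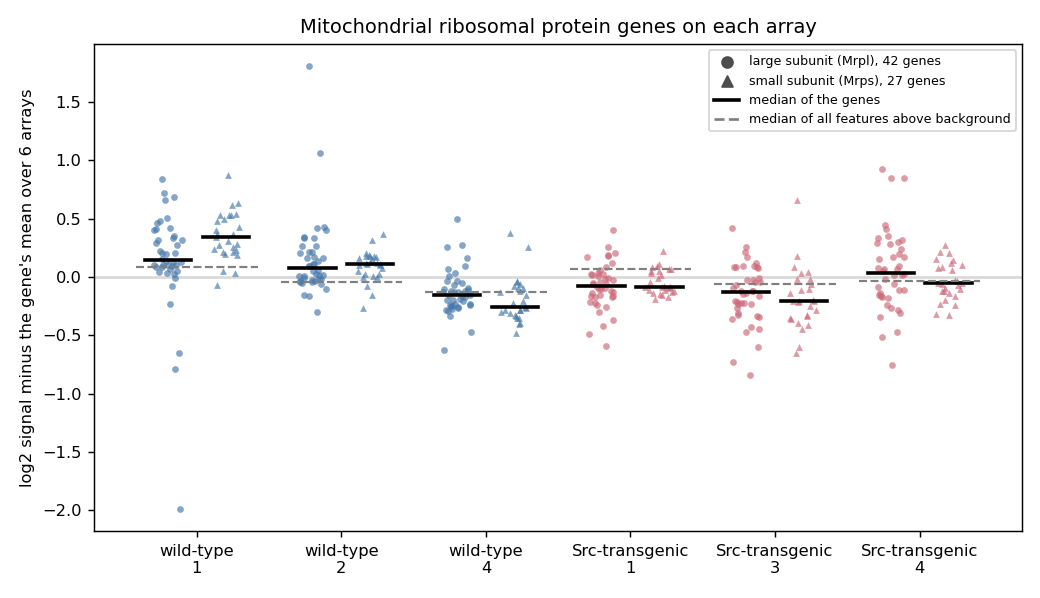
Log2 signal of each mitochondrial ribosomal protein gene minus its mean over the 6 arrays (vertical axis), by array; circles are 42 large and triangles 27 small subunit genes, black bars their medians and dashed lines the median of all features above background on all arrays. Wild-type replicates 1 and 4 lie farthest apart, and the transgenic arrays fall between them, with transgenic replicate 3 nearest to wild-type replicate 4.

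The median difference between genotypes depended on which mice were included. Without wild-type replicate 1 it was -0.04, with 39 of 69 genes and 44.5% of all features lower, and without wild-type replicate 4 it was -0.26, with 58 genes and 50.4% of features lower. Without transgenic replicate 4, the array that lacked signal of 3 Y-linked genes, it was -0.18 with 57 lower, and without transgenic replicate 3 it was -0.07 with 45 lower, where 47.5% of all features were lower in both cases. At an unadjusted p under 0.05, leaving out wild-type replicate 4 gave 4 genes lower in limma, namely Mrpl34, Mrpl37, Mrpl42 and Mrps2, where 3.89% of all features were. Without transgenic replicate 1 it was Mrps17 (background 2.26%) and without transgenic replicate 4 it was Mrpl57 (2.25%). No gene was lower at that level without wild-type replicate 1 or 2 or transgenic replicate 3, where 2.27%, 2.83% and 1.88% of all features were. None of the genes named here passed after adjustment over all features.

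The subunits were compared next. Genes were assigned by symbol alone. The small subunit set therefore holds Mrps18a and Mrps30, which lie in the large subunit, and Mrps36, no longer held to be ribosomal. The 27 small subunit genes had a median difference of -0.18, with 24 lower, and the 42 large subunit genes -0.09, with 28 lower. On wild-type replicate 1, 22 of the 27 small subunit genes had their highest value, against 15 of the 42 large subunit genes. On transgenic replicate 4 these counts were 0 and 11. Of all features 25.9% were highest on the former array and 18.8% on the latter. The small subunit genes were also read at lower signal, with a median log2 signal of 8.82 on wild-type replicate 1 against 9.81 for the large subunit genes. The part of signal in this contrast was not tested. Without wild-type replicate 1 the medians of the subunits were close, at -0.04 for the small and -0.05 for the large.

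Descent from bacteria was the other division considered. Proteins with a counterpart in the bacterial ribosome accounted for 43 genes, with a median difference of -0.11 and 31 lower. The other 26, most of them specific to mitochondria, had a median of -0.25 and 21 lower. Without wild-type replicate 1 the medians were 0.01 and -0.09. The difference between these sets was not tested.

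Among large subunit genes, the largest difference belonged to Mrpl34, a small basic protein conserved from bacteria. It read 7.64, 8.61 and 6.18 on wild-type replicates 1, 2 and 4 and 6.39, 5.96 and 6.05 on transgenic replicates 1, 3 and 4. Wild-type replicate 4 lay among the transgenic values, so the groups overlapped. The log2 difference was -1.35 ± 0.60 (SE, limma's adjusted p = 0.69). Its spot lay in a patch of unusual local brightness on 3 arrays, wild-type replicate 2 and transgenic replicates 3 and 4. After local correction the difference was -0.36, and without wild-type replicate 2 it was -0.78.

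Mrpl55, a large subunit protein, gave the clearest separation. It read 9.48, 9.09 and 9.09 on wild-type replicates 1, 2 and 4 and 8.74, 8.83 and 8.76 on transgenic replicates 1, 3 and 4, in no patch on any array. All transgenic values were below all wild-type values. The difference was -0.44 ± 0.20 (SE, limma's adjusted p = 0.69), a ratio of 0.74, with a 95% interval of -0.92 to 0.04. In an exact two-sided permutation test p was 0.1, which no split of 6 arrays into equal groups can go below.

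Mrpl42 and Mrpl37, both proteins of the large subunit gained by mitochondria, had differences of similar size with overlapping groups. Mrpl37 read 8.87, 8.87 and 8.28 on wild-type and 8.40, 8.14 and 8.14 on transgenic arrays, a difference of -0.45 ± 0.24 (SE). Mrpl42 read 8.35, 7.89 and 7.40 on wild-type and 7.26, 7.71 and 7.16 on transgenic arrays, a difference of -0.50 ± 0.31 (SE). Wild-type replicate 4 was the lowest wild-type array for both genes and overlapped the transgenic values. Limma's adjusted p was 0.70 for Mrpl37 and 0.71 for Mrpl42. Without wild-type replicate 1 Mrpl42 had -0.26, and Mrpl37 had -0.29 after local correction.

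Groups without overlap were seen for 7 of the 69 genes, named here after their values were seen. In 6 genes, 8.7% of the 69, every transgenic value was below every wild-type value, as for 5.9% of all features, and in 1 gene, 1.45%, every transgenic value was above, as for 10.1% of all features. Besides Mrpl55 the lower ones were Mrps2, Mrps17, Mrpl40, Mrpl45 and Mrps16, with differences of -0.44 ± 0.21, -0.43 ± 0.21, -0.30 ± 0.20, -0.30 ± 0.20 and -0.23 ± 0.19 (SE). The gap between the groups was narrow in most. Mrps2, conserved from bacteria, read 8.42 on its lowest wild-type and 8.39 on its highest transgenic array. Mrps16, whose human counterpart is mutated in a respiratory chain disorder, read 10.72 and 10.71 on the corresponding arrays. Mrpl40, a protein of the central protuberance, read 9.46 and 9.45.

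Mrps17 and Mrpl45 responded in opposite ways to local correction of brightness. Mrps17, also conserved from bacteria, read 10.76, 10.68 and 10.77 on wild-type and 10.61, 10.11 and 10.19 on transgenic arrays. It lay in a patch on transgenic replicate 3, and its difference turned to 0.10 after local correction. Mrpl45, which sits at the exit of the nascent chain and anchors the ribosome to the inner membrane, read 9.44, 9.22 and 9.12 on wild-type and 9.09, 9.02 and 8.77 on transgenic arrays. Its difference of -0.30 became -0.47 after local correction. Mrps2 had -0.27 after the same correction.

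**Figure D3:**
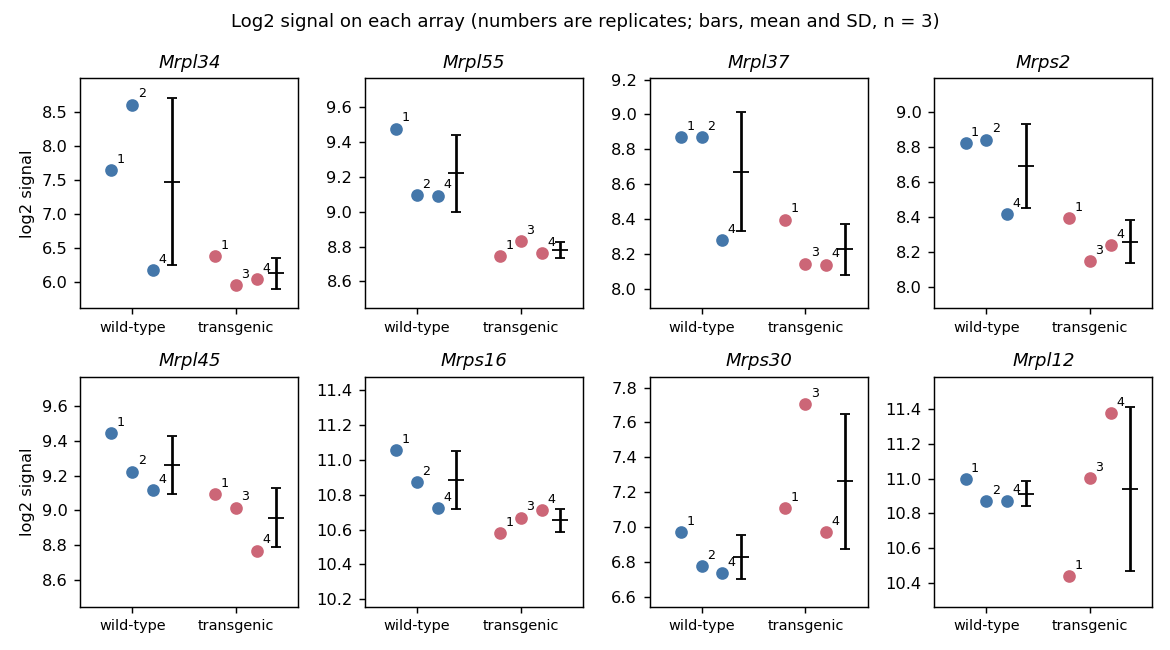
Log2 signal (vertical axis) of 8 of the genes on each array, wild-type in blue and transgenic in red, with replicate numbers; bars give the mean and SD of 3 arrays. Mrpl55, Mrps2, Mrpl45 and Mrps16 separate the groups downward and Mrps30 upward, while Mrpl34, Mrpl37 and Mrpl12 overlap.

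Of the 17 genes with a higher mean in transgenic livers, 1 had groups without overlap. This was Mrps30, which is named for the small subunit although mammalian structures place it in the large one. It read 6.97, 6.77 and 6.74 on wild-type and 7.11, 7.70 and 6.97 on transgenic arrays. The lowest transgenic value was barely above the highest wild-type value, and transgenic replicate 3 was the array that stood out. The difference was 0.43 ± 0.25 (SE, limma's adjusted p = 0.70), and without transgenic replicate 3 it was 0.21. The dimmer Mrps30 probe was above background on 1 wild-type and 3 transgenic arrays, and no difference is given for it.

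Mrpl53 and Mrpl50, both large subunit proteins, followed with overlapping groups. Mrpl53 read 7.54, 8.67 and 8.08 on wild-type and 8.52, 7.99 and 9.18 on transgenic arrays, a difference of 0.46 ± 0.42 (SE). Mrpl50 read 10.91, 11.00 and 10.66 on wild-type and 10.89, 11.21 and 11.29 on transgenic arrays, a difference of 0.27 ± 0.21 (SE). For Mrpl50, in a patch on transgenic replicate 4, the difference was -0.17 after local correction and -0.01 with median scaling. Mrpl53 had 0.16 without transgenic replicate 4 and 0.19 without wild-type replicate 1.

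Of the 69 genes, 66 were above background on all 6 arrays. Mrpl36, which encodes a very small protein conserved from bacteria, was not above background on any array, and so no fold is given. Mrpl46, a protein of the central protuberance, was above background on 1 wild-type array and on no transgenic array, and no fold is given for it either. Mrpl21, conserved from bacteria, was above background on all 3 transgenic arrays and no wild-type array. The 95% interval of its log2 difference was -0.15 to 0.82 (limma's adjusted p = 0.71), which includes 0. A lower bound on the ratio of the 2 means was 1.04, with no allowance for the spread between mice. That bound divides the transgenic mean by a raised wild-type mean, in which no array's value may be below that array's dimmest probe above background. The groups overlapped for Mrpl21, with 5.42 on wild-type replicate 2 and 5.39 on transgenic replicate 1. The dimmest probe above background read 5.65 on the former and 5.15 on the latter array. The higher of the 2 values therefore counted as below background and the lower as above.

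The genes of this and the next paragraph were named for known roles, with their values already seen. Mrpl2, Mrpl3 and Mrpl4, whose bacterial counterparts reach towards the peptidyl transferase centre and the tunnel, had differences of 0.07, 0.08 and 0.13 (SE 0.22 to 0.30). Mrpl23 and Mrpl24, which line the tunnel exit, had 0.04 and -0.04 (SE 0.21 and 0.19). With median scaling Mrpl2, Mrpl3, Mrpl4 and Mrpl23 had -0.19, -0.09, -0.04 and -0.23, and after local correction Mrpl2 had -0.40 and Mrpl23 -0.42, so these directions were not stable. In the stalk that recruits translation factors, Mrpl10 had -0.14 ± 0.18, Mrpl11 -0.37 ± 0.27 and Mrpl12 0.03 ± 0.28 (SE). Mrpl12 also binds the mitochondrial RNA polymerase, and it varied widely among transgenic mice. It read 11.00, 10.87 and 10.87 on wild-type and 10.44, 11.00 and 11.37 on transgenic arrays, so the transgenic values enclosed all wild-type values, and with median scaling its difference was -0.25. Mrpl58, a peptidyl-tRNA hydrolase that frees stalled ribosomes, had -0.29 ± 0.27 (SE).

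In the small subunit, Mrps12 of the decoding centre had a difference of 0.03 ± 0.21 (-0.18 with median scaling) and Mrps7, an RNA-binding protein of the head, -0.11 ± 0.34 (SE). Mrps22, mutated in a human respiratory chain disorder, had -0.24 ± 0.26, and Mrps27, a pentatricopeptide repeat protein, -0.21 ± 0.19 (SE). Mrps36, now known as a subunit of the oxoglutarate dehydrogenase complex and not as a ribosomal protein, had -0.33 ± 0.28 (SE). Wild-type replicate 1 was the highest array for Mrps7, Mrps22, Mrps27 and Mrps36, and without it Mrps22 had -0.04 and Mrps36 -0.09.

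The 3 Mrps18 genes are paralogs that place related proteins at different sites, Mrps18c at the position of the bacterial protein, Mrps18b elsewhere in the small subunit and Mrps18a in the large subunit. Mrps18a read 10.32, 10.17 and 9.97 on wild-type and 9.96, 9.90 and 10.24 on transgenic arrays. Mrps18b read 11.55, 11.34 and 11.87 on wild-type and 11.45, 11.58 and 11.18 on transgenic arrays. Mrps18c read 10.98, 10.79 and 10.69 on wild-type and 10.67, 10.68 and 10.91 on transgenic arrays. The groups overlapped for all 3 genes, and their arrays did not follow one order, since wild-type replicate 4 was the highest for Mrps18b and the lowest wild-type array for Mrps18a and Mrps18c. The differences were -0.12 ± 0.21, -0.18 ± 0.23 and -0.07 ± 0.19 (SE), with limma's adjusted p at 0.83 to 0.93.

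The promoters of the mitochondrial ribosomal protein genes were searched for 3 motifs known from nuclear genes of mitochondrial proteins. These were the NRF1 motif GCGCANGCG, the ETS motif CCGGAAGT bound by GABPA and the YY1 motif AAGATGGCG, on both strands, with N standing for any base. No motif contains another. RefSeq promoter windows of GRCm38.p6, from 250 bases before to 50 after the start, were at hand for 60 of the 69 genes. The promoters of 4 genes named above are printed to show where these letters fall, with motif letters in capitals. They lie at chr4:107066817-107067116 on the minus strand (Mrpl37, YY1), chr11:97315466-97315765 on the plus strand (Mrpl45, NRF1 at several places), chr5:100798509-100798808 on the plus strand (Mrps18c, ETS) and chr11:120484387-120484686 on the plus strand (Mrpl12, NRF1).
Mrpl37: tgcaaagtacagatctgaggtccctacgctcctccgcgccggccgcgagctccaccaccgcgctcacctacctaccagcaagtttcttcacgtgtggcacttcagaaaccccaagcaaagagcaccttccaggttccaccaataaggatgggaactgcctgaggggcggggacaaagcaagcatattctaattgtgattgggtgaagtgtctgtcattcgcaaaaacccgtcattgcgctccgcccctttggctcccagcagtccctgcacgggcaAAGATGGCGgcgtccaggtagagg
Mrpl45: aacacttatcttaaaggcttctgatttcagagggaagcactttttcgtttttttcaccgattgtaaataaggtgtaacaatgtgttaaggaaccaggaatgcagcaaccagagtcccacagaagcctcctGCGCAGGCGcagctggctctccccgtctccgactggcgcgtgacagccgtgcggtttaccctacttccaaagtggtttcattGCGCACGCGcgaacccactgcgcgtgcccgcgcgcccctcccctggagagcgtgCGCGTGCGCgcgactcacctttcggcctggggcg
Mrps18c: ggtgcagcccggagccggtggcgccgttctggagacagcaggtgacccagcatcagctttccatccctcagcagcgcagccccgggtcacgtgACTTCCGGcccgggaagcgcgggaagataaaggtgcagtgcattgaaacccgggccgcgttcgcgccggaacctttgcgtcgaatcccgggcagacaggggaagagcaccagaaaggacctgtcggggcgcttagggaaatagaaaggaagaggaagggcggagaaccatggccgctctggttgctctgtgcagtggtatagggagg
Mrpl12: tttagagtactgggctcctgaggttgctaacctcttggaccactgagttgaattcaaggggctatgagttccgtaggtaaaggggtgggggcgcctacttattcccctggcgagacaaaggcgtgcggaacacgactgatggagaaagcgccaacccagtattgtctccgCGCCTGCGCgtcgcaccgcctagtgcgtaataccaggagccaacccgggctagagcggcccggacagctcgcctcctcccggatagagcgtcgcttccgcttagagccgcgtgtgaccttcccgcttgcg
The NRF1 letters were found in 13 of the 63 promoters of these genes, or 20.6%, against 6.25% of all 32851 promoters. The ETS letters were found in 10, or 15.9% against 3.89%, and the YY1 letters in 8, or 12.7% against 1.4%. A match to at least 1 motif was found for 29 of 60 genes. These 29 had a median log2 difference of -0.17, with 23 lower, and the 31 without a match -0.11, with 22 lower. A match is a description of the letters and shows no binding.

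The genes were then set beside the rest of mitochondrial gene expression. Of 5 ribosomal proteins with other names, all had negative differences, with a median of -0.13. Among them Aurkaip1, a small subunit protein, read 9.38, 9.03 and 10.35 on wild-type and 8.93, 8.86 and 8.87 on transgenic arrays, a difference of -0.70 ± 0.36 (SE). Without wild-type replicate 4 Aurkaip1 had -0.32. Ptcd3, a pentatricopeptide repeat protein of the small subunit, was above background on no array. None of the 5 was at an unadjusted p under 0.05 in limma.

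Factors that build the ribosome had a median of -0.23 over 19 genes, with 14 lower and 3 of 19 lower at an unadjusted p under 0.05 in limma, against 2.72% of all features. The median was -0.14 without wild-type replicate 2 and -0.33 without wild-type replicate 4. These 3 were Mettl17 and Noa1, which act in assembly of the small subunit, and Mterf4, which works with an rRNA methyltransferase on the large subunit. Mettl17 read 7.95, 7.54 and 7.82 on wild-type and 6.71, 6.89 and 7.26 on transgenic arrays, a difference of -0.82 ± 0.23 (SE), or a ratio of 0.57. Mterf4 read 9.11, 8.62 and 8.86 on wild-type and 8.27, 8.25 and 8.30 on transgenic arrays, a difference of -0.59 ± 0.20 (SE). The groups did not overlap for either gene, nor for Noa1, at -0.56 ± 0.22 (SE) and -0.36 after local correction. Limma gave an adjusted p of 0.69 for each of these 3, taken across every feature. Of the 19 genes, 6, or 31.6%, were lower without overlap and 0 higher, against 5.9% and 10.1% of all features.

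Translation factors had negative differences for 11 of 11 genes and a median of -0.31. In 4 of the 11, or 36.4%, the groups did not overlap and transgenic values were lower, as for 5.9% of all features. In 0 of them they were higher without overlap, as for 10.1% of all features. The initiation factor gene Mtif3 had -0.43 ± 0.20 and the elongation factor gene Tufm -0.35 ± 0.17 (SE), both without overlap between the groups. Tufm lay in a patch on 1 array and turned to 0.90 after local correction. Mitochondrial aminoacyl-tRNA synthetases, which charge the organelle's tRNAs, had negative differences for 13 of 15 genes and a median of -0.23. Pars2, which charges the tRNA for proline, had -1.62 ± 0.69 (SE) and lay in a patch on 3 arrays, with -0.70 after local correction and -0.92 without wild-type replicate 2. No gene of either list was called by limma after adjustment (p of 0.69 or more). The median of the translation factors on wild-type replicate 1 was 0.44 above their mean over the 6 arrays, and that of the synthetases 0.36, so both lists were high on the same array as the ribosomal protein genes. Without that array their medians were -0.25 and -0.07.

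Genes of mitochondrial transcription, mtDNA maintenance and their nuclear regulators had a median of -0.06 over 17 genes, with 10 lower. Groups did not overlap for 3 of the 17 with lower and 1 with higher transgenic values, or 17.6% and 5.88%, against 5.9% and 10.1% of all features. Myc and Ppargc1b, the genes of this list at an unadjusted p under 0.05, differed in direction, each without overlap between groups. At that level 2.72% of all features were lower and 4.37% higher, and 1 of 17 each way is near that background. Myc, a growth-related transcription factor, read 6.40, 6.23 and 5.84 on wild-type and 8.55, 6.47 and 7.36 on transgenic arrays, a difference of 1.31 ± 0.53 (SE), and 0.76 without transgenic replicate 1. Ppargc1b, a coactivator of genes for mitochondrial proteins, read 8.59, 8.46 and 8.25 on wild-type and 8.08, 7.38 and 7.96 on transgenic arrays, a difference of -0.63 ± 0.26 (SE). Both had an adjusted p of 0.69 in limma, and Ppargc1b had -0.41 without transgenic replicate 3.

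The proteins that the mitochondrial ribosome serves and its cytosolic counterpart were the last lists compared. Nuclear-encoded respiratory chain subunits had a median of -0.02 over 76 genes, with 41 lower, and cytosolic ribosomal proteins 0.02 over 58 genes, with 25 lower. When single arrays were left out these medians ran from -0.09 to 0.03 and from -0.10 to 0.13, and that of the mitochondrial ribosomal protein genes from -0.26 to -0.04. The smallest p-values among the former belonged to Cox6a2, the muscle form of a cytochrome oxidase subunit, at 0.59 ± 0.32, and Uqcrc1, a core protein of complex III, at -0.36 ± 0.21 (SE). Among the latter Rplp2, a protein of the cytosolic ribosome's stalk, had -0.34 ± 0.20 (SE). The cytosolic genes were highest on another array, since 38 of 58 had their highest value on transgenic replicate 4. So did 11 of the 69 mitochondrial ones and 18.8% of all features. No gene of the respiratory chain or cytosolic lists was at an unadjusted p under 0.05 in limma, nor any translation factor.

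**Figure D4:**
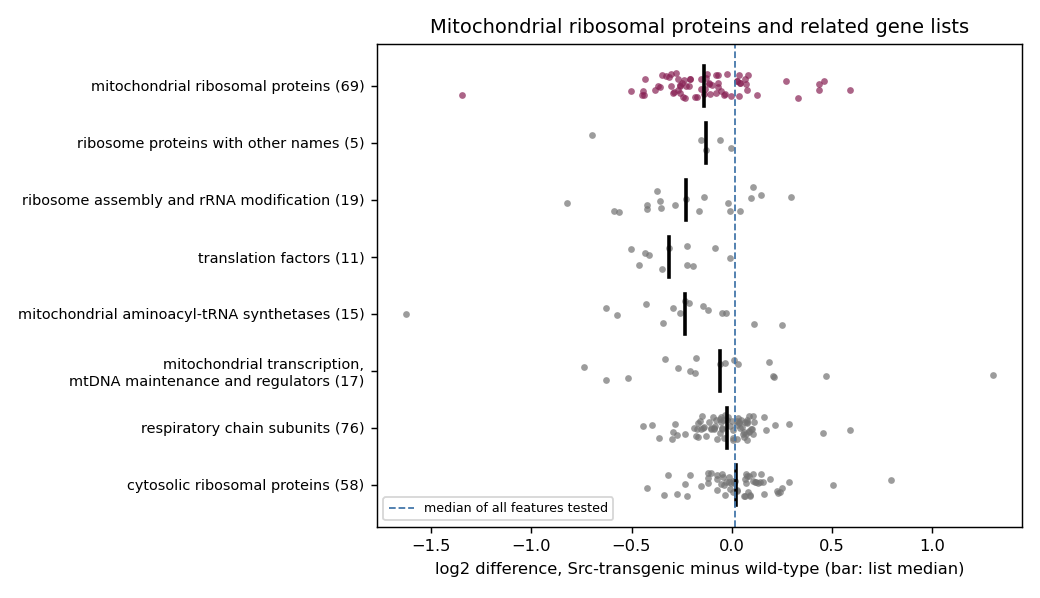
Log2 difference (Src-transgenic minus wild-type, horizontal axis) of each gene in the mitochondrial ribosomal protein set and 7 related lists, with list medians as black bars and the number of genes in parentheses; the dashed line is the median of all features. The medians run from -0.31 for translation factors to 0.02 for cytosolic ribosomal proteins.

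This order of the lists depended on the scaling between arrays. When each array was scaled to its median in place of quantile normalization, the mitochondrial ribosomal protein genes had a median of -0.27, with 63 of 69 and 57.0% of all features lower. Respiratory chain subunits then had -0.31 and cytosolic ribosomal proteins -0.25, while the median of all features above background with a mean log2 signal of 9 to 11 was -0.16 and that from 11 to 13 was -0.27. Under that scaling the medians of these 3 lists lay side by side, as the plot of list medians by way of processing shows. The lists differ in signal, with medians of 9.53, 12.01 and 12.40 on wild-type replicate 1 in the order given. Against features of like signal, the 37 mitochondrial ribosomal protein genes from 9 to 11 had -0.32 under median scaling. From 7 to 9 the medians were -0.28 for 16 genes and -0.02 for all such features. From 5 to 7 they were -0.24 for 11 genes and -0.004 for all.

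**Figure D5:**
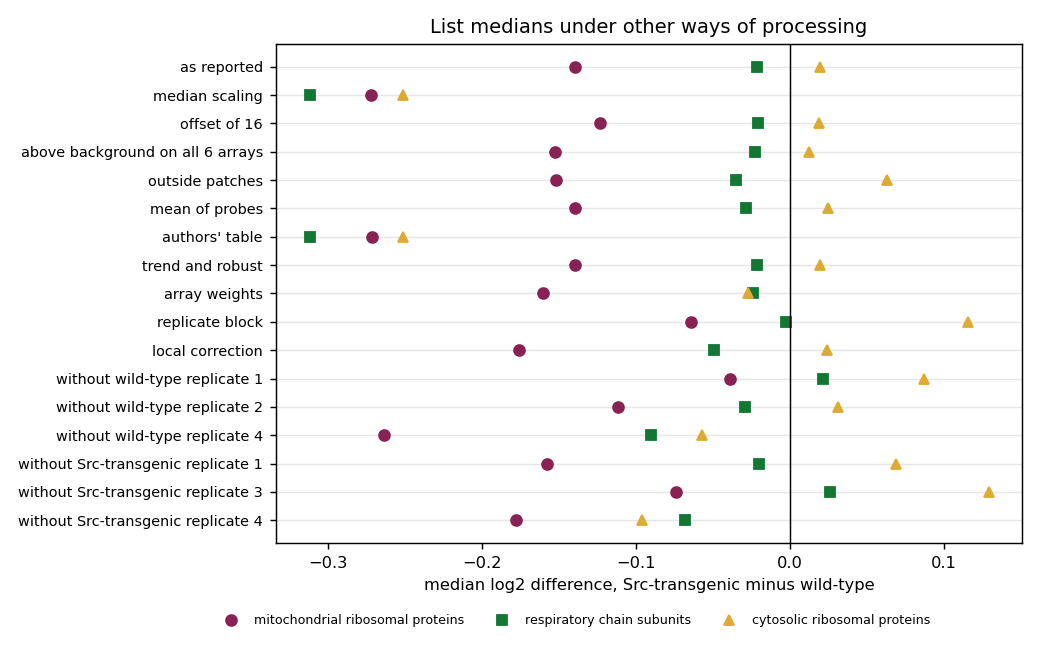
Median log2 difference (Src-transgenic minus wild-type, horizontal axis) of mitochondrial ribosomal proteins, respiratory chain subunits and cytosolic ribosomal proteins under each way of processing (rows). The median of the mitochondrial ribosomal proteins is negative in each row, from -0.27 to -0.04, and with median scaling or the authors' table the 3 lists lie close together.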

How the data were processed

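Total RNA of 6 livers was turned into biotin-carrying cRNA and hybridised to 1-colour arrays, per the labels' protocols, with a streptavidin dye for detection. Per the file headers, each deposited intensity is a spot's background-corrected signal. A second intensity column and the authors' table held that signal divided by a constant per array, equal to each other within 1e-06 for all 34967 probes. For the scanner, image software and genome build, the sources used here give no name.

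Of 35587 spots, 620 bacterial controls were left out. On each array the lowest percentile (1) of positive signals set a floor (4.72 to 5.75), below which no value was kept, and log2 values were quantile normalized. Accessions named 14763 probes through RefSeq of GRCm38.p6, and the brightest probe stood for a gene. To count as above background a signal had to exceed a threshold from 570 control spots, their median with 3 scaled median absolute deviations added (33.0 to 50.6). A patch was where the median deviation of spots within 4 rows and columns exceeded 0.5 in either direction. Such spots were 0.73% to 7.55% of an array, and local correction subtracted that deviation. A patch touched 10 of the 69 genes, or 14.5%, and 18.4% of all features.

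The comparison of groups used limma 3.58.1 under R 4.3.3, fitting all 34175 features together with moderated variances, two-sided p-values and Benjamini-Hochberg adjustment, and was checked on simulated data. The labels number the transgenic samples as mice and the wild-type samples as controls, and p-values measure the spread between these samples. Genes were named by rule: those at an unadjusted p under 0.05, the 4 largest differences each way among genes above background on all 6 arrays, separated groups with a difference over 0.5, the Mrps18 genes and Mrpl12, probes that disagree, and the 2 smallest p per related list. Others are marked in the text. Some genes that the rule names are not reported here. The genes and lists were chosen with earlier results of these data known. Alternatives were median scaling, an offset of 16, filters on dim or patched probes, the mean of probes, the authors' table, other spread models, array weights, a replicate block, local correction and each array left out. Figures were drawn with matplotlib 3.10.9.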

Additional observations from a re-analysis of the deposited data

How the results depend on the processing

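No mitochondrial ribosomal protein gene passed limma's adjusted threshold under any alternative, and the median of the 69 genes was negative under each, from -0.27 to -0.04. The number lower at an unadjusted p under 0.05, 0 as reported, was 1 with median scaling, the authors' table, an offset of 16 or array weights, 2 with the filter on dim probes or a trended robust spread, 3 with local correction and 0 to 4 when single arrays were left out. Median scaling and the authors' table gave -0.27 and -0.26 for large subunit genes, -0.24 for transcription and regulator genes, -0.31 for respiratory chain subunits and -0.25 for cytosolic ribosomal proteins. Outside patches the assembly factors had -0.35.

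Labels share replicate numbers 1 and 4 between groups, and deviations of same-numbered arrays correlated at 0.06 for each pair. Arrays with different numbers correlated at -0.07 to 0.02, below the same-numbered pairs. The correlations were taken as too weak, and the pairs as too few, to pair mice. With the number as a replicate block the median of the 69 genes was -0.06 with 44 lower (47.5% of all features), 0 genes passed the adjusted threshold, and 1 gene, Mrpl53, was higher at an unadjusted p under 0.05 (background 1.99%, and 1.96% lower). The block gave -0.10 for Mrpl4, -0.0277 for Mrpl12 and 0.22 for Mrps7.

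For the 42 named genes with a group above background on all its arrays, 426 values under the settings other than leaving out arrays kept their sign and 27 turned it, none past the threshold. For a gene read by 1 probe, a trended robust spread, the mean of probes and the filters on dim or patched probes reuse the same values. No turn was possible there, so the tally does not measure stability. The authors' table, also scaled by a constant per array, nearly repeated median scaling. Median scaling gave -0.0082 for Mrpl50, -0.038 for Mrpl4, -0.25 for Mrpl12, -0.0886 for Mrpl3, -0.18 for Mrps12, -0.23 for Mrpl23 and -0.19 for Mrpl2, and the authors' table gave -0.0078 for Mrpl50, -0.0376 for Mrpl4, -0.25 for Mrpl12, -0.0882 for Mrpl3, -0.18 for Mrps12, -0.23 for Mrpl23 and -0.18 for Mrpl2. Array weights gave -0.0687 for Mrpl12, -0.043 for Mrpl3 and -0.0585 for Mrps12. Local correction gave -0.17 for Mrpl50, -0.0107 for Mrpl12, 0.10 for Mrps17, -0.42 for Mrpl23, -0.40 for Mrpl2, 0.0465 for Mrpl24 and 0.90 for Tufm. Leaving out single arrays gave -0.0539 to 0.23 for Mrpl4, -0.19 to 0.28 for Mrpl12, -0.14 to 0.0126 for Mrps18c, -0.14 to 0.26 for Mrpl3, -0.11 to 0.14 for Mrps12, -0.0952 to 0.15 for Mrpl23, -0.0944 to 0.19 for Mrpl2, -0.13 to 0.0171 for Mrpl24 and -0.34 to 0.16 for Mrps7. The cause of these turns was not tested. With 3 arrays a group, the median SE of 0.23 limits which differences could be told from the spread.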
